A study of Mus musculus with 18 samples.

Results

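The genes described here encode mitochondrial ribosomal proteins. They were taken from the deposited table of 168136 loci as every locus whose listed symbols include one of the form Mrpl or Mrps followed by digits, leaving out pseudogene symbols that end in -ps. This gave 85 loci for 78 genes, 49 named Mrpl and 29 named Mrps, of which 78 loci were tested. RNA was collected on streptavidin-coated beads from lysates of nuclei or of whole cells of Neuro2A (N2A), a wild-type (WT) mouse neuroblastoma line, to find RNA held by a biotinylated mimic of the miRNA *miR-92b* in either compartment. Cells were transfected with 25 nM biotinylated *miR-92b*, with 25 nM of a biotinylated scrambled mimic (Scr), or were left untransfected (control), and lysates were made after 48 h. The 6 groups of nuclear control, nuclear Scr, nuclear *miR-92b*, whole cell control, whole cell Scr and whole cell *miR-92b* held 3 samples each. All come from 1 cell line, whole cell lysates also hold nuclei, and libraries held poly(A) RNA, taken up on oligo-dT. The labels do not say whether samples of a group came from separate cultures, so p-values measure only the spread between these samples.

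Mitochondria have ribosomes of their own, which translate the few proteins encoded in mitochondrial DNA, all of them subunits of the respiratory chain or of the ATP synthase. The proteins of these ribosomes are encoded in the nucleus, translated in the cytosol and imported. Mrpl genes are named for the large subunit and Mrps genes for the small one, although Mrps18a and Mrps30 sit in the large subunit and the protein of Mrps36 is now placed in the 2-oxoglutarate dehydrogenase complex. A part of the proteins has counterparts in bacterial ribosomes and the rest was acquired in the mitochondrial lineage.

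The mimic carries a miRNA that finds its targets mainly through the seed, bases 2 to 8, written here in capitals. The mature sequences of *miR-92b* and of 5 other mouse miRNAs with that seed, from RefSeq for GRCm38.p6, show what is shared and what differs outside the seed.
mmu-miR-92b-3p: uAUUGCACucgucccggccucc
mmu-miR-92a-3p: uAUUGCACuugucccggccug
mmu-miR-25-3p: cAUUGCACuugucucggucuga
mmu-miR-32-5p: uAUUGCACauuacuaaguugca
mmu-miR-363-3p: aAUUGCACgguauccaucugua
mmu-miR-367-3p: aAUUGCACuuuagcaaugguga

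The reverse complement of the seed, GTGCAAT, was searched in the annotated 3′ UTRs of each gene's transcripts tagged as basic. Where no basic transcript had a 3′ UTR, any transcript with one was used. A gene counted if any searched 3′ UTR held the match. This was so in 3 of 78 mitochondrial ribosomal protein genes (3.85%), against 8.18% of 9886 tested genes. None of the 78 held the 8-base match GTGCAATA. Shorter matches and matches outside annotated 3′ UTRs were not searched. The 3′ UTR of the principal transcript of these genes was short, with a median of 327 nt against 1066 nt. The 3 sites, with the match in capitals and the transcribed strand shown, are given because the search found the match only in these members. They lie in the annotated 3′ UTR of Mrpl33 (GRCm38 chr5:31622500-31622506, plus strand), Mrpl57 (chr14:57827952-57827958, plus strand) and Mrps16 (chr14:20389541-20389547, minus strand). The Mrps16 site lies outside the listed locus of Mrps16 (chr14:20391230-20393759), whose values are used here.
Mrpl33: actctgcagtGTGCAATgaaga
Mrpl57: gatacaaacaGTGCAATttttt
Mrps16: gggtgggtcaGTGCAATtagtt

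Loci with a symbol held 3752991 to 22920038 reads in a sample, and the mitochondrial ribosomal protein loci held 0.313% to 0.508% of them. Values are normalized counts, which are reads divided by 1 size factor per sample, unless FPKM is named. The samples carried markers of the line, with 11 neuroblastoma genes above the filter on low counts and a summed FPKM of the list between 172 and 391, while the summed FPKM of 6 fibroblast markers stayed at or below 4.73. The fractions differed in the direction of their names: 3 of 4 tested nuclear-retained RNAs were higher in nuclear samples (Malat1 by a log2 fold change of 1.08) and 5 of 5 cytoplasm-enriched mRNAs were lower (Gapdh by -2.35). In 6 libraries 10.0% or more of the tested loci had no read. These were nuclear Scr samples 2 and 3 and nuclear control sample 3, at 10.2% to 13.9% where the other 6 nuclear samples had at most 0.944%, and whole cell *miR-92b* samples 2 (10.0%) and 3 (16.7%) and whole cell Scr sample 1 (12.9%), where the other 6 whole cell samples had 2.41% to 7.63%. Of the 78 tested mitochondrial ribosomal protein loci, 19 had no read in nuclear Scr sample 2, 10 in nuclear control sample 3 and 9 in nuclear Scr sample 3, while none was at 0 in the 3 nuclear *miR-92b* samples.

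Most of these genes were present at low to moderate levels. The mean normalized count of the 78 tested loci ran from 14.5 to 9950 with a median of 119, and 22 lay below 50. A single locus dominated. Mrps6, which encodes a small subunit protein with a bacterial counterpart, is listed as 1 locus with Slc5a3, the sodium and myo-inositol transporter, and Gm16310 (chr16:92058030-92112227), and this locus alone took 47.2% to 56.7% of the normalized counts of the 85 loci in nuclear samples and 17% to 43.1% in whole cell samples. Reads of the joined genes cannot be told apart. The other joined loci hold Mrpl12 with Slc25a10, Mrps24 with Urgcp, Mrps34 with Nme3, Mrps10 with Guca1b, Mrps18b with Atat1, Mrpl33 with Bre and Gm43809, Mrps18c with Gm43511, Mrpl53 with Ccdc142 and Gm42688, Mrpl51 with Mir3098, and Mrpl3 with Gm38077. Among loci of 1 gene, the mean level per length (FPKM) over the 18 samples was highest for Mrpl30 with 46.5, Mrps9 with 43.2, Mrpl23 with 27.4, Mrpl24 with 23.5, Mrps17 with 23.2 and Mrpl38 with 22.02. The order rested on single samples: without whole cell *miR-92b* sample 3, where it had 230 FPKM, Mrpl30 had a mean of 35.7, below Mrps9 with 43.7, and the mean of Mrpl38 rested on nuclear control sample 3, at 120 FPKM beside a nuclear median of 12.1. In nuclear samples Mrpl30 ran from 6.14 to 41.2 FPKM and Mrps9 from 33.5 to 56.7. The lowest of the tested loci were Mrpl57 with 1.75, Mrpl40 with 2.33 and Mrpl11 with 2.88. Not tested for a low mean were Mrps12, the only gene without a tested locus, and the extra loci of Mrps16, Mrpl16, Mrps28, Mrps18c, Mrps22 and Mrpl4.

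Nuclear and whole cell samples were compared to see which of these transcripts were recovered from either compartment. Over the mean of the 3 treatments, 18 of 78 loci were lower in nuclear samples and 4 were higher (limma on log2(normalized count + 1), Benjamini-Hochberg adjusted p below 0.05 over 15579 loci). Large subunit genes made up 12 of the 18, small subunit genes 5, and Mrps36 was the remaining one. As background, 15.8% of all tested loci were called lower and 15.3% higher in this comparison, 31.0% in all, against 23.1%, 5.13% and 28.2% of the members. At an unadjusted p below 0.05 there were 29 members, against 42.0% of all loci. The median log2 fold change of the members was -0.34, while that of all tested loci was 0.14. These are bulk samples with counts scaled in each library, so values are relative and do not give the amount of RNA per cell or per nucleus. On the FPKM scale 20 members were lower and 0 higher (background 16.1% and 8.92%), so the 4 higher calls depended on the scale. Without nuclear *miR-92b* sample 2, or without sample 3, 14 members were called, without the 3 nuclear libraries above and whole cell *miR-92b* sample 3 together 15 were, 13 of them lower, and without all 6 libraries with many loci at 0 there were 27, 23 of them lower (choices made after the data were seen, with single remaining samples assumed to vary like the other groups).

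**Figure D1:**
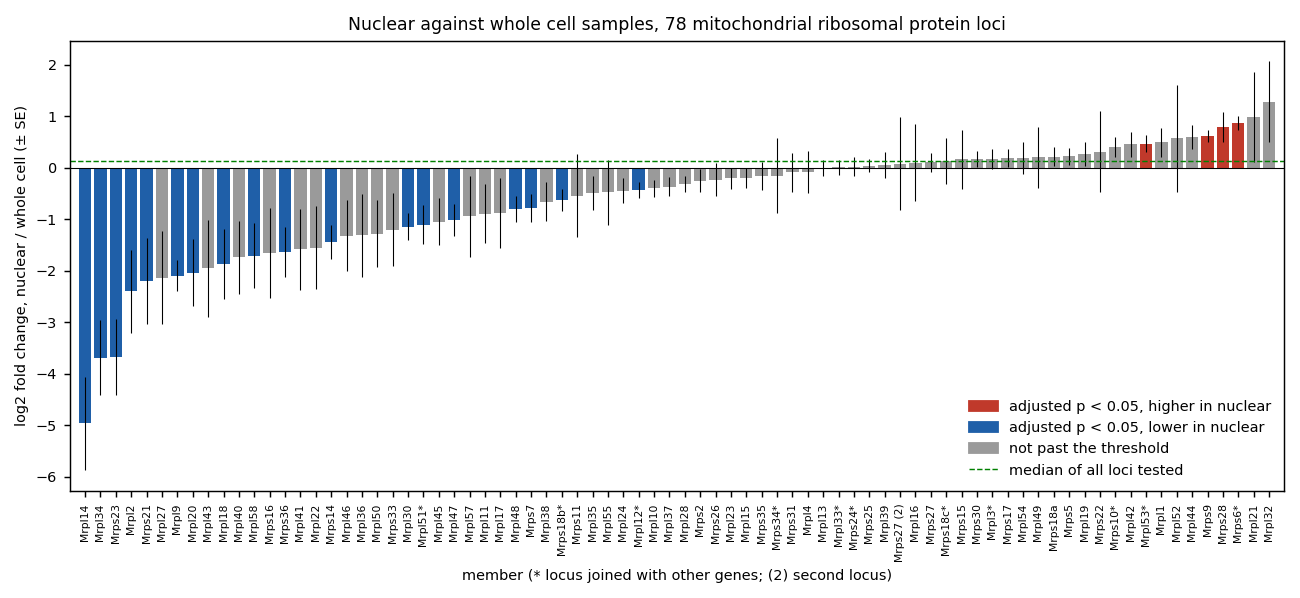
Log2 fold change of nuclear over whole cell samples (mean of 3 treatments, ± SE, limma on log2(normalized count + 1)) for the 78 tested loci, in order of size. Blue bars are the 18 loci called lower, red bars the 4 called higher (none of the 4 is called on the FPKM scale, where Mrpl53 turns to -0.16), grey bars did not pass, and the dashed line is the median of all tested loci, at 0.14.

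The largest estimate among the large subunit genes was that of Mrpl14, named here after its values were seen, whose protein has a bacterial counterpart and in the assembled subunit lies next to the assembly factor Malsu1. Its normalized count was 0 in each of the 3 nuclear control samples and the 3 nuclear Scr samples, and 1.37, 0.337 and 24.4 in the nuclear *miR-92b* samples. In whole cell samples it was 103, 55.3 and 73.3 in controls, 143, 31.4 and 92.7 with Scr, and 70.2, 0 and 169 with *miR-92b*. The groups overlapped only through whole cell *miR-92b* sample 2, which had no read. The fitted log2 fold change was -4.97 (SE 0.91, adjusted p = 0.000197 by limma), a value that depends on the pseudocount. Set against a floor of 3 reads over the group, the whole cell mean was at least 53.1-fold higher in controls and at least 67.8-fold higher with Scr. That floor covers counting error only, and nuclear control sample 3 and nuclear Scr samples 2 and 3 are libraries with many loci at 0.

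Mrpl34, the counterpart of a small bacterial large-subunit protein, was lower in all 9 nuclear samples than in any whole cell sample. Its nuclear counts had a lowest, median and highest value of 0, 7.22 and 24.0, and its whole cell counts of 28.3, 56.4 and 95.7. The log2 fold change was -3.69 (SE 0.73, adjusted p = 0.000443 by limma). Mrpl9, another protein with a bacterial counterpart, also separated completely and with less scatter, at 32.2, 49.2 and 70.7 against 138, 186 and 525. Its log2 fold change was -2.10 (SE 0.30, adjusted p = 1.32e-05 by limma), the smallest adjusted p among the members.

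In the small subunit, Mrps23, a protein without a bacterial counterpart, and Mrps14, which has one, separated likewise. Mrps23 had a lowest, median and highest count of 0, 9.0 and 17.2 in nuclear lysates against 35.9, 69.2 and 150 in whole cell lysates, with a log2 fold change of -3.68 (SE 0.73, adjusted p = 0.000464 by limma). For Mrps14 these counts were 21.4, 68.7 and 88.8 against 90.0, 182 and 341, with a log2 fold change of -1.45 (SE 0.33, adjusted p = 0.00152 by limma). Mrps36 ran from 1.26 to 51.1 in nuclear samples, with a median of 41.4, and from 59.5 to 188 in whole cell samples, with a median of 104. It was lower by a log2 fold change of -1.64 (SE 0.49, adjusted p = 0.0133 by limma). These 5 loci (Mrpl34, Mrpl9, Mrps23, Mrps14 and Mrps36) were those among the 18 in which all 9 nuclear samples lay below all 9 whole cell samples, a pattern seen in 4.4% of all tested loci. With Mrps6, which separated in the other direction (2.91% of all loci did), 6 members did not overlap, against 7.32% of all loci.

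**Figure D2:**
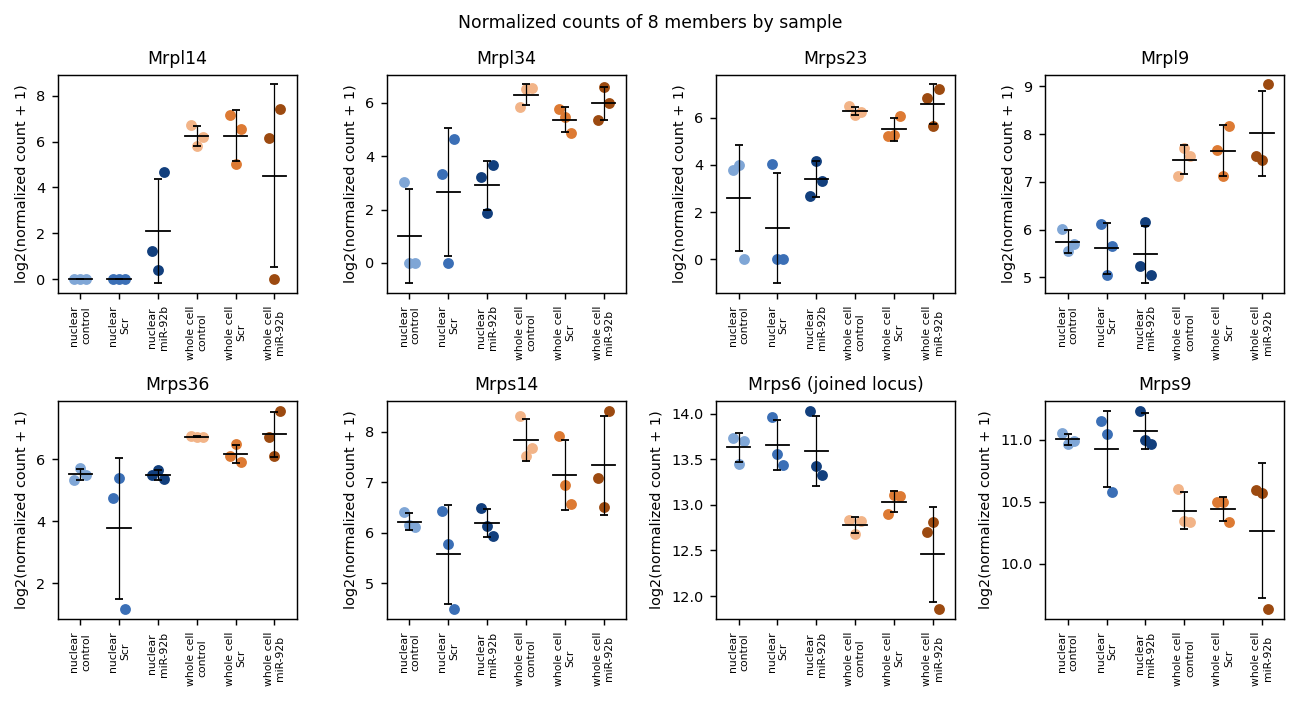
Normalized counts of 8 members as log2(normalized count + 1) in each of the 18 samples, by group (blue, nuclear; orange, whole cell), with each point 1 sample, the line the group mean and the bar 1 SD (n = 3). Mrpl34, Mrps23, Mrpl9, Mrps36 and Mrps14 have every nuclear point below every whole cell point, Mrpl14 has 1 whole cell *miR-92b* sample at 0, and Mrps6 (a joined locus) lies between 10243 and 16741 counts in nuclear and between 3713 and 8808 in whole cell samples.

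The remaining lower calls overlapped between compartments and are named here because they passed, a choice made after their values were seen. Among them were Mrpl2, at -2.40, Mrpl20, at -2.04, Mrpl18, at -1.87, Mrpl30, at -1.15, and Mrpl47, at -1.01, which encode large subunit proteins with bacterial counterparts. Mrpl58, a large subunit protein related to peptide release factors that can free stalled peptides, was lower by a log2 fold change of -1.71 and ran from 0 to 133 in nuclear and from 28.6 to 514 in whole cell samples. Mrps21 was at -2.20, Mrpl51 at -1.11, Mrpl48 at -0.80, Mrps7, a protein of the head of the small subunit, at -0.79, and Mrpl12, a protein of the stalk that recruits translation factors, at -0.43. These values are all log2 fold changes of normalized counts. The adjusted p (limma) ran from 0.00165 for Mrpl30 to 0.0487 for Mrps21. Several of these calls were not stable. Of the alternatives run, 23 of 31 ended the call on Mrps21, 18 of 32 that on Mrpl58, 16 of 32 those on Mrpl12 and on Mrpl18, 11 of 32 that on Mrps7, 9 of 31 that on Mrpl2, 5 of 32 that on Mrpl51 and 3 of 32 that on Mrpl20, and none that on Mrpl30, Mrpl47 or Mrpl48.

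Of the 4 loci called higher in nuclear samples, 3 carry small subunit genes. The Mrps6 locus had a lowest, median and highest count of 10243, 12049 and 16741 in nuclear and 3713, 7231 and 8808 in whole cell samples, and no sample overlapped. Its log2 fold change was 0.87 (SE 0.13, adjusted p = 2.71e-05 by limma) on counts and 0.31 (adjusted p = 0.131 by limma) on FPKM, and how much of it belongs to Slc5a3 was not tested. Mrps9, a small subunit protein with a bacterial counterpart, had counts of 1527, 2050 and 2409 against 793, 1442 and 1555, a log2 fold change of 0.62 (SE 0.12, adjusted p = 0.000427 by limma), and 0.22 (adjusted p = 0.176 by limma) on FPKM. Only nuclear Scr sample 3, at 1527, fell within the whole cell range. Mrps28 was at 0.79, and the joined locus of Mrpl53 was at 0.46 on counts and at -0.16 on FPKM; these calls ended under 15 and 17 of 32 alternatives. Mrpl32, at 1.28, and Mrpl21, at 0.99, had larger estimates, named after they were seen, that did not pass (adjusted p = 0.222 and 0.405 by limma), with counts from 20.2 to 96.5 against 0 to 65.5 for Mrpl32 and from 0 to 94.9 against 0 to 52.9 for Mrpl21.

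The paralogs of Mrps18 gave values on both sides. Mrps18b, of the small subunit, had counts of 53.0, 159 and 195 in nuclear and 147, 212 and 293 in whole cell samples (lowest, median, highest) and was lower by a log2 fold change of -0.63 (SE 0.21, adjusted p = 0.0279 by limma), a call that 10 of 32 alternatives ended. Mrps18a, of the large subunit, had a log2 fold change of 0.22 (SE 0.19, adjusted p = 0.388 by limma), with counts from 173 to 422 against 181 to 409. Mrps18c, of the small subunit, had one of 0.13 (SE 0.45, adjusted p = 0.853 by limma), with counts from 23.7 to 129 against 15.7 to 132. Differences between the paralogs were not tested, and the loci of Mrps18b and Mrps18c are joined with other genes.

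By subunit, 12 of 51 large subunit loci were lower and 1 higher, with a median log2 fold change of -0.48, and 5 of 26 small subunit loci were lower and 3 higher, with a median of -0.03. Of 47 loci for proteins with a bacterial counterpart 13 were lower and 3 higher, and of 30 without one 4 were lower and 1 higher. Precision differed with level. The 22 members with a mean count below 50 had a median SE of 0.80 and the other 56 one of 0.26, and 5 of the 22 and 17 of the 56 were called.

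Genes of related function were read the same way. Of 81 cytosolic ribosomal protein loci, 78 were lower in nuclear samples and 0 higher, with a median log2 fold change of -2.36, and of 78 loci for nuclear-encoded respiratory chain subunits 52 were lower and 2 higher, with a median of -1.21. Mitochondrial ribosomal protein loci thus gave a smaller count of lower calls than either, and the difference between lists was not tested. Among 5 mitoribosomal proteins with other names, 3 were lower and 1 higher. The higher one was Ptcd3, in a locus joined with Gm22486, at 0.62 (adjusted p = 0.000586 by limma). Dap3 was lower, at -0.82 (adjusted p = 0.00184 by limma). Chchd1, a small subunit protein, was at -2.97 (adjusted p = 0.00256 by limma) and Aurkaip1, another, at -1.45 (adjusted p = 0.019 by limma).

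Of 10 mitochondrial translation factors, 1 was lower and 2 were higher. The higher ones were Guf1, at 0.82 (adjusted p = 3.96e-05 by limma), and Mtif2, at 0.61 (adjusted p = 0.00626 by limma). For Guf1 all 9 nuclear samples lay above all 9 whole cell samples. Tufm, the elongation factor that brings aminoacyl-tRNA to the mitochondrial ribosome, had counts of 27.4, 39.7 and 84.5 in nuclear and 126, 166 and 243 in whole cell samples, with no overlap and a log2 fold change of -1.93 (SE 0.31, adjusted p = 4.05e-05 by limma). Mtfmt, which formylates the initiator methionyl-tRNA, had an estimate of 1.66 that did not pass (adjusted p = 0.144 by limma). Of 21 loci for assembly factors of the mitochondrial ribosome 1 was higher and 0 lower, and the largest estimates, for Mpv17l2 at -1.31 and for Mrm2 at -1.05, did not pass (adjusted p = 0.285 and 0.401 by limma). Of 18 loci for mitochondrial aminoacyl-tRNA synthetases, 2 were higher and 0 lower.

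Within single treatments few members passed. In controls 3 were lower (Mrpl14 at -6.25, Mrpl34 at -5.28 and Mrpl9 at -1.71) and Mrps6 was higher, 4 of 78 or 5.13%, where 9.85% of all tested loci were called (6.91% lower and 2.94% higher). With Scr 5 were lower (Mrpl14 at -6.25, Mrpl40 at -4.31, Mrpl20 at -4.04, Mrpl9 at -2.05 and Mrps18b at -1.28), or 6.41% against 5.17% (3.7% lower and 1.46% higher). With *miR-92b* 2 were lower (Mrpl9 at -2.53 and Mrpl30 at -1.40) and 2 higher (Mrps6 at 1.13 and Mrps9 at 0.80), or 5.13% against 13.3% (6.63% lower and 6.66% higher). All are log2 fold changes of normalized counts, and Mrpl9 was the only member that passed in each of the 3 treatments with all samples in the model. In controls its call was lost whichever of the 6 samples was left out (adjusted p from 0.0602 to 0.141 by limma), with Scr it was lost in 3 of 6 such fits, and with *miR-92b* in 0 of 6. The counts of Mrpl9 were 63.5, 45.7 and 50.6 in nuclear and 139, 209 and 185 in whole cell controls, 68.6, 32.2 and 49.2 against 203, 138 and 287 with Scr, and 36.9, 70.7 and 32.2 against 186, 176 and 525 with *miR-92b*. Mrpl40, a large subunit protein without a bacterial counterpart, had no read in the 3 nuclear Scr samples and 23.7, 8.10 and 34.0 counts in the whole cell Scr samples. Against a floor of 3 reads over the group, which covers counting error only, the whole cell mean was at least 16.7-fold higher. Nuclear Scr samples 2 and 3 are libraries with many loci at 0, and 13 of 18 alternatives ended the call on Mrpl40. All 3 nuclear samples lay below all 3 whole cell samples for 31 members in controls, 16 with Scr and 20 with *miR-92b* (19.4%, 11.6% and 16.5% of all loci), and above them for 5, 7 and 9 (18.8%, 10.7% and 19.7%), so that 36 members separated in controls, where 38.1% of all loci did, 23 with Scr, where 22.3% did, and 29 with *miR-92b*, where 36.2% did. The calls rested on few samples. Leaving out 1 control sample left 1 to 3 of the 4 calls, leaving out whole cell Scr sample 1 or 3 left 0 of the 5 and nuclear Scr sample 2 left 1, and with *miR-92b* 9 were called without whole cell sample 2 and 2 without nuclear sample 1 or whole cell sample 3.

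The compartments were also compared in the amount per length. Over the 67 tested loci of 1 gene, the median FPKM lay between 4.55 and 7.34 in the 9 nuclear samples. It lay between 7.43 and 18.3 in the 9 whole cell samples, so the ranges did not overlap. The summed FPKM of all 74 loci of 1 gene, tested or not, ran from 463 to 744 and from 788 to 1995. The highest sum was that of whole cell *miR-92b* sample 3, the library with the largest share of loci at 0. The share of the reads on these 74 loci does not take length into account. It ran from 0.155% to 0.187% in nuclear and from 0.155% to 0.226% in whole cell samples and overlapped. On the FPKM scale 66 of 78 log2 fold changes were negative and the median was -0.87, against 0.02 for all tested loci.

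**Figure D3:**
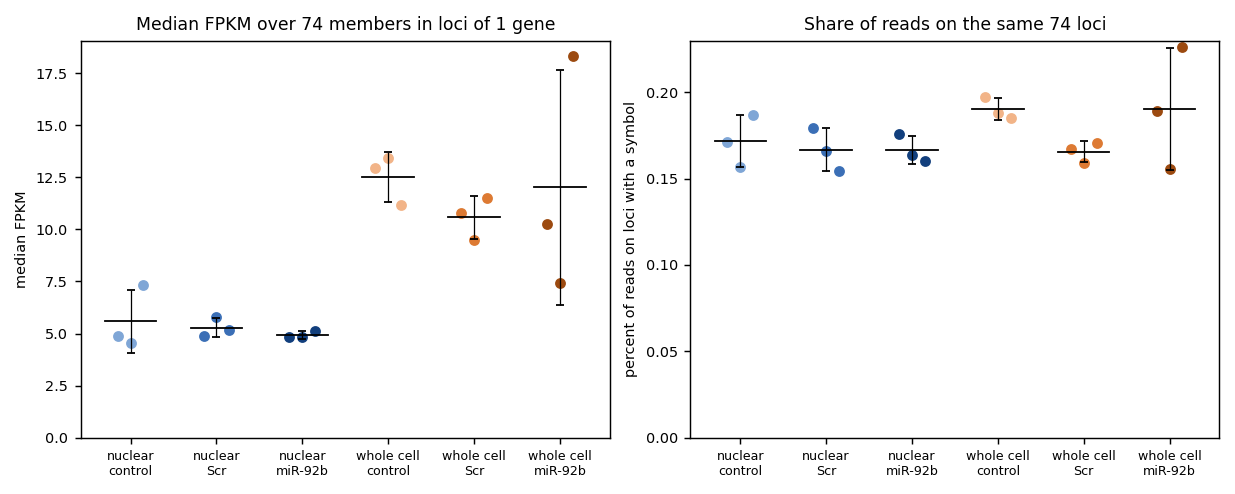
Left, the median FPKM over the 67 tested loci of 1 gene in each sample (the 74 in the panel title counts all loci of 1 gene, tested or not). Right, the percentage of reads on loci with a symbol that all 74 loci of 1 gene held. Blue is nuclear and orange whole cell, points are samples, and line and bar are the group mean and SD (n = 3). Median FPKM is 4.55 to 7.34 in nuclear and 7.43 to 18.3 in whole cell samples, whereas the shares of reads overlap.

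Of the 18 loci lower in counts, 12 were also lower in FPKM, which is 66.7% of the former and 60% of the 20 lower in FPKM, and both scales use the same reads. The 8 that passed in FPKM alone were Mrpl10, Mrpl13, Mrpl17, Mrpl23, Mrpl28, Mrpl37, Mrpl40 and Mrps24. The count and the FPKM of a locus differ by the transcript length the authors' software used, which can be read back as the ratio of count to FPKM, scaled in each sample to 1009 reference loci with 1 annotated transcript (an analysis added after the data were seen). This implied transcript length is a property of the assigned transcripts, not a direct measurement of an RNA. It was longer in nuclear samples for 17 of 63 members with enough reads, where 10.5% of 13497 loci were longer, and shorter for 1, Mrpl50, where 11.0% were (limma on the log2 length, adjusted p below 0.05). The median log2 difference was 0.23 for the members and 0.00 for all. Without nuclear *miR-92b* sample 3, or without nuclear Scr sample 1, 11 members were called in all instead of 18.

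Mrpl23, a large subunit protein at the exit of the peptide tunnel with a bacterial counterpart, shows the pattern, and its value is given because it had the clearest length difference once the values were seen. Its implied length had a lowest, median and highest value of 1236, 2403 and 4486 nt in nuclear and 603, 1069 and 1754 nt in whole cell samples, beside 692 nt for the annotated principal transcript. The log2 difference was 1.27 (SE 0.15). Its normalized counts overlapped (150 to 366 against 153 to 423, log2 fold change -0.21, SE 0.20, adjusted p = 0.461 by limma), while its FPKM was lower in nuclear samples, with medians of 11.7 and 34.5 and a log2 fold change of -1.53 (SE 0.26). Mrpl30 had implied lengths from 822 to 2896 nt in nuclear and from 615 to 921 nt in whole cell samples, and Mrps14 medians of 2366 and 801 nt. For Mrpl9 the lengths were nearly the same, from 1661 to 1967 nt and from 1724 to 1885 nt, and its log2 fold change was -2.10 on counts and -2.17 on FPKM. Cytosolic ribosomal protein loci were longer in nuclear samples in 32 of 49 cases and respiratory chain loci in 36 of 65, with none shorter in either list.

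**Figure D4:**
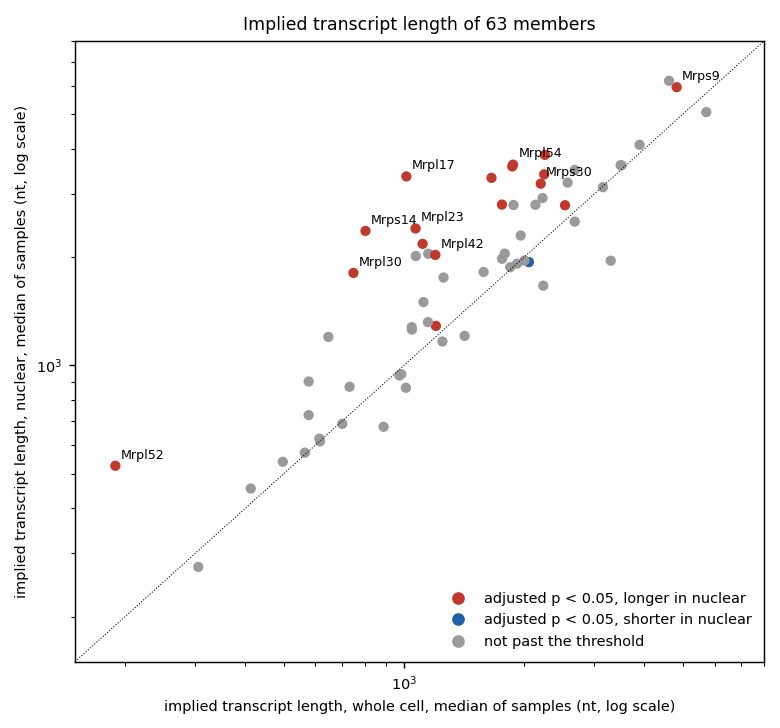
Implied transcript length (nt, log axes) of the 63 members tested, with the median of the whole cell samples on the horizontal and of the nuclear samples on the vertical axis, and equal lengths on the dotted line. Red points (17) are longer and the blue point (Mrpl50) shorter in nuclear samples, and Mrpl23 lies at 1069 and 2403 nt.

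*miR-92b* was compared with Scr in each compartment to find transcripts collected by the mimic. No member passed in nuclear samples (0 of 15579 loci did, 0.0%) or in whole cell samples (1 locus, 0.00642%). At an unadjusted p below 0.05 there were 8 members in nuclear samples (limma; 6 by edgeR and 7 by DESeq2, each with 0 after adjustment), where 4.41% of all loci were, and 6 in whole cell samples (5 by edgeR and 5 by DESeq2, each with 0 after adjustment), where 9.72% were. The 3 *miR-92b* and 3 Scr samples did not overlap for 12 members in nuclear samples (5 higher and 7 lower with *miR-92b*), against 10.1% of all loci (6.28% and 3.81%), and for 6 in whole cell samples (5 higher and 1 lower), against 8.92% (4.32% and 4.6%). In nuclear samples the members had a median log2 fold change of 0.10, against 0.11 for all loci, and in whole cell samples one of 0.17, against -0.01. The nuclear median turned to -0.0095 without Scr sample 2, and the whole cell median was 0.0035 without *miR-92b* sample 3, 0.05 without Scr sample 1 and 0.46 without *miR-92b* sample 2. The median SE of 0.62 sets what could be seen.

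The members with the seed match showed no common direction. Mrpl33, in a joined locus, had 428, 587 and 497 counts with Scr and 423, 429 and 413 with *miR-92b* in nuclear samples, and 600, 321 and 346 against 434, 527 and 543 in whole cell samples. Its log2 fold changes of *miR-92b* over Scr were -0.24 (SE 0.24) and 0.30 (SE 0.24). Mrpl57 had 25.9, 0 and 0 counts with Scr and 15.02, 19.9 and 14.1 with *miR-92b* in nuclear samples, for a log2 fold change of 2.52 (SE 1.37), and 1.75, 42.5 and 25.7 against 25.2, 12.9 and 92.4 in whole cell samples, for one of 1.14 (SE 1.37). The nuclear values of 0 are those of Scr samples 2 and 3, libraries with many loci at 0. Mrps16 had log2 fold changes of -0.89 (SE 1.52) and -1.76 (SE 1.52). Its match lies outside its listed locus. The length the authors' software used for Mrps16 can be read back from count and FPKM. It was 265 to 312 nt in nuclear and 267 to 355 nt in whole cell samples, beside 2572 nt for the annotated principal transcript. All 6 log2 fold changes of these 3 members lay within 2 SE of 0 and none passed.

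The largest and smallest estimates came from genes with low counts. In nuclear samples these were Mrpl40, at 3.03, the extra locus of Mrps27, at 2.87, and Mrpl20, at 2.82, and at the other end Mrpl36, at -2.09, Mrpl11, at -1.61, and Mrpl49, at -0.93. Mrpl40 had 5.46, 10.4 and 6.43 counts with *miR-92b* and no read in the 3 Scr samples, of which samples 2 and 3 are libraries with many loci at 0. Its estimate turned to -0.0288 after quantile normalization. For Mrpl20, a large subunit protein with a bacterial counterpart, the counts were 20.5, 25.6 and 47.6 against 33.5, 0 and 1.26 with Scr, where the low values are those of Scr samples 2 and 3, 2 of the libraries with many loci at 0. Mrpl36 had 10.9, 5.72 and 12.9 counts against 36.6, 20.7 and 105, and Mrpl11, a protein at the base of the stalk, had 17.8, 6.73 and 24.4 against 30.5, 87.5 and 36.6. All had an adjusted p of 1 by limma.

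In whole cell samples the ends were Mrpl49, at 3.48, Mrpl21, at 2.62, and Mrpl22, at 2.48, and the extra locus of Mrps27, at -3.27, Mrps33, at -2.01, and Mrpl40, at -1.80. Mrpl49, a large subunit protein without a bacterial counterpart, had 169, 52.8 and 147 counts with *miR-92b* and 0, 24.3 and 38.0 with Scr (the 0 being that of Scr sample 1, a library with many loci at 0), and did not pass (SE 1.03, unadjusted p = 0.00255 and adjusted p = 0.311 by limma), the lowest adjusted p among the members in this comparison. For Mrpl22, which lines the peptide tunnel, the counts were 40.5, 19.99 and 51.6 against 0, 19.2 and 12.05. The estimate of Mrps33, with 139, 0 and 58.6 counts against 114, 55.7 and 82.8, rested on whole cell *miR-92b* sample 2 and was 0.16 without it. The difference of the *miR-92b* effect between the compartments passed for none of the 78 members (background 0.00642%). At an unadjusted p below 0.05 there were 7 members by limma (7.21% of all loci), 8 by edgeR and 10 by DESeq2, and 0 after adjustment by each, and 2 members (0.539% of all loci), Mrpl49 and Mrps27, had *miR-92b* samples on opposite sides of Scr in the 2 compartments without overlap.

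**Figure D5:**
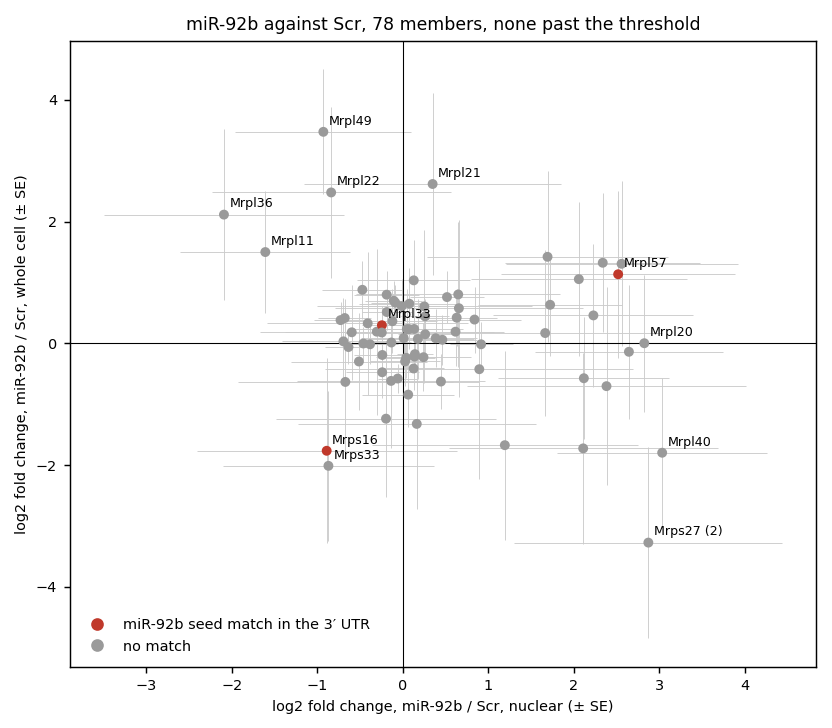
Log2 fold change, *miR-92b* over Scr, in nuclear (horizontal) and whole cell samples (vertical) for the 78 tested members, with ± SE as grey lines. The 3 members with a match to the seed in the annotated 3′ UTR are red and lie on different sides of 0 (Mrpl57 at 2.52 and 1.14, Mrps16 at -0.89 and -1.76, Mrpl33 at -0.24 and 0.30), and no member passed the threshold in either comparison. The match of Mrps16 lies outside its listed locus.

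Comparisons with untransfected cells gave 0 members past the threshold in all 4 cases, which share their control samples. With *miR-92b* 0 members in nuclear samples and 3 in whole cell samples had an unadjusted p below 0.05 by limma (1 and 1 by edgeR, 1 and 2 by DESeq2). With Scr 9 and 2 members did (5 and 2 by edgeR, 7 and 2 by DESeq2). Of all tested loci, 0.321% and 4.69% had one by limma with *miR-92b*, and 5.88% and 5.09% with Scr. After adjustment, 0.0%, 0.00642%, 0.0% and 0.0% of all loci passed, in the same order. For Scr in nuclear samples the lowest adjusted p of a member was 0.838.

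Shared features that the choice by name did not use were read from GRCm38. The genes were compact, with a median span of 7900 bases against 25205 for 9886 tested genes, 5 against 9 exons and a coding length of 582 against 1404 nt. Across 66 members in loci of 1 gene, the nuclear over whole cell log2 fold change had a Spearman correlation of 0.39 with coding length, 0.35 with exon number and 0.33 with gene span, against 0.24, 0.08 and 0.17 across the 9886 genes. These are correlations across genes of the same libraries, and genes are not independent replicates. In 23 of 78 members (29.5%) a gene on the other strand started between 1000 bases upstream and 300 bases downstream of the start, against 13.8% of tested genes.

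Promoter windows from RefSeq (GRCm38.p6, 250 bases before to 50 after the start) were matched for 69 of the genes and searched on both strands for exact matches to motifs of 3 factors known from genes of mitochondrial function. The ETS motif CCGGAAG was present in 26 (37.7%), against 13.2% of 16136 genes and 8.86% of all 32851 windows. The YY1 motif, of 11 bases, was present in 5 (7.25%, against 1.12% of the genes) and the NRF1 motif, of 10 bases, in 3 (4.35%, against 1.52%), and a match is a description of letters only. Mrps11 and Mrpl46, a small and a large subunit gene, lie on opposite strands and have the same listed locus (chr7:78775235-78793178) with separate values. In the GENCODE annotation, used for the 23, they overlap at their 5′ ends with starts 412 bases apart, so that they are not among the 23. The RefSeq windows are placed on other starts, so this overlap and the windows come from different annotations. The rule for the 23 was not applied to RefSeq starts. The window of Mrps11 is shown as an example of a YY1 match beside 2 members (chr7:78782881-78783180, plus strand), with the match, read on the other strand, in capitals. It shares 141 bases with the window of Mrpl46, which has no YY1 match, and the marked bases lie outside the shared stretch.
Mrps11: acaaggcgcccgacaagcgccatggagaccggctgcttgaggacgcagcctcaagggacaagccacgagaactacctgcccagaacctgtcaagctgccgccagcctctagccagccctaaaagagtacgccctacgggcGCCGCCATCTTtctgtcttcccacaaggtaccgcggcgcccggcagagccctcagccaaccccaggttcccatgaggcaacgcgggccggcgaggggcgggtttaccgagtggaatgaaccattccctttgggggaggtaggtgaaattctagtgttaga
Neither gene was called. Mrps11 had medians of 44.4 counts in nuclear and 64.8 in whole cell samples, and Mrpl46 had 21.3 and 37.7.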

How the data were processed

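RNA held by biotinylated mimics and RNA from untransfected cells was analysed in 18 samples, 3 in each of 6 groups taken from the sample titles. The authors used Trimmomatic 0.30 for trimming, TopHat2 for alignment to GRCm38 (mm10), and Cufflinks and Cuffdiff for assembly and quantification. For the last 3 tools the version, and for the genes the annotation release, is not given in the sources used here. Deposited normalized counts are a signal, reads divided by 1 size factor per sample, and the deposited FPKM values are relative to transcript length and mapped reads. The authors' comparison tables, with a log2 fold change, p-value and q-value per locus, were not used.

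Dividing by the value of 1 read gave whole reads (within 0.02) for 99.9% of 635205 nonzero normalized counts. The design had allowed for raw counts, and because the deposited values are normalized, limma 3.58.1 (R 4.3.3) with a variance trend was the main test, with the log2 of the normalized count plus 1 as the response and all 6 groups in 1 model, two-sided, adjusted by Benjamini-Hochberg over 15579 loci with a symbol and a mean of at least 10, at a threshold of 0.05. Fold changes on this scale understate those of low counts. Left out were 115957 loci that have no symbol, with 4.51% to 15.3% of a sample's reads. The alternatives changed the pseudocount (0.5 or 8), the filter (a mean of 1, of 50, or none), the scale (FPKM plus 0.1, medians set equal, quantile normalization), or the model: the compared groups only, arrayWeights, the sample number as a block, edgeR 4.0.16 (quasi-likelihood) and DESeq2 1.42.0 on the recovered reads, loci of 1 gene only, and each sample left out. The test and the length test were tested on simulated data. Counting intervals and floors cover counting error only.

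The members, gene lists, alternatives and rule for named genes were chosen with earlier results of these data known. Named were members called in the pooled comparison without overlap of the compartments (up to 8 per direction), any called between treatments, the 3 largest and 3 smallest estimates of *miR-92b* against Scr per compartment, the 6 highest and 3 lowest in FPKM, the Mrps18 paralogs, members with a seed match, untested and joined members by name, and the 2 largest estimates among mitoribosomal proteins of other names, translation factors and assembly factors. Other members and related genes given with values were chosen after these were seen. Among the related lists, the markers of Schwann cells and glia summed to 2.30 to 12.3 FPKM per sample and those of immune cells to at most 2.35, and 0 members of either list passed.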

Additional observations from a re-analysis of the deposited data

Results flagged for a closer look

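For 2 members the 3 *miR-92b* samples lay all on one side of the 3 Scr samples in nuclear lysates and all on the other side in whole cell lysates. Mrpl49 had 43.7, 27.9 and 32.2 normalized counts with *miR-92b* and 67.0, 95.5 and 44.1 with Scr in nuclear samples, and 169, 52.8 and 147 against 0, 24.3 and 38.0 in whole cell samples. The difference of the 2 effects was -4.41 on the log2 scale (SE 1.46, unadjusted p = 0.00591, adjusted p = 0.683 by limma). Mrps27, a small subunit protein without a bacterial counterpart, had 214, 178 and 192 against 248, 368 and 330 in nuclear and 230, 238 and 308 against 224, 223 and 142 in whole cell samples, with a difference of -1.10 (SE 0.44, unadjusted p = 0.0204, adjusted p = 0.683 by limma). Neither difference passed, and 0.539% of all tested loci showed such a pattern. The extra locus of Mrps27 had 6.83, 22.6 and 20.6 counts with *miR-92b* against 9.14, 0 and 0 with Scr in nuclear samples. In whole cell samples it had 36.9, 0 and 0 against 53.5, 24.3 and 23.8. Its medians thus differed the other way in both compartments. Its groups overlapped, and each 0 is from a library with many loci at 0.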

How the results depend on the processing

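Of the 22 members called between compartments over the mean of the 3 treatments, 9 kept the call under every alternative run in which they were tested (Mrpl9, Mrpl14, Mrpl30, Mrpl34, Mrpl47, Mrpl48, Mrps14, Mrps23 and Mrps36) and 13 lost it under at least 1. That count was within 1.5 times the main one except with single samples left out (14 to 26). Counts in single treatments moved both up and down, and the cause was not tested. Shares of all tested loci under these alternatives are given here for the FPKM scale only. There, 0.725% were higher and 6.59% lower in controls, and 2.24% and 6.83% with *miR-92b*. The counts that follow show dependence on the setting and are not a result about the members. In controls, 4 members were called, against 22 with arrayWeights, 18 with only the compared groups, 11 in the FPKM table, 8 by DESeq2, 7 with a pseudocount of 8 or after quantile normalization, and 1 to 3 with single samples left out. With Scr, 5 were called, against 0 with arrayWeights, 1 with only the compared groups or without a filter, 2 by edgeR, 3 with a mean of at least 1 or 50 or after quantile normalization, and 0 to 7 with single samples left out. With *miR-92b*, 4 were called, against 10 after quantile normalization, 7 in the FPKM table or by DESeq2, 1 with only the compared groups, and 2 to 9 with single samples left out. The 7 counts between treatments were 0 under every alternative run. The count of members with a different implied length was 18 and ran from 11 to 21 with single samples left out.

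The direction turned for Mrpl53 between compartments in the FPKM table (-0.16), for Mrpl40 with *miR-92b* against Scr in nuclear samples after quantile normalization (-0.0288) and for Mrps33 in whole cell samples without *miR-92b* sample 2 (0.16, the highest of its values with single samples left out, which began at -3.40). No pairing by sample number was detected (45 pairs with the same number had correlations of deviations from -0.0438 to 0.109, 1 of them over 0.1). Deviations from means of 3 samples cannot show whether samples with the same number came from 1 culture. With the number as a replicate block, 20 members were called over the mean of treatments, 6 in controls, 5 with Scr and 4 with *miR-92b*. The 22 members with a mean count below 50 had a median SE of 0.80, against 0.26 for the other 56.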
